A study of Mus musculus with 9 samples.

Results

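The genes described here are 48 genes of blood and lymphatic vessels and of the cells that wrap them: endothelial surface proteins, receptors and transcription factors, the growth factors that act on vessels, and pericyte and smooth muscle genes. They were listed by name, all 48 were on the array, and each was read from the 1 probe set assigned to that gene alone that had the highest mean over the 9 arrays. They are 48 of 18193 genes named on the array, and 46 of them passed the filter on low values (a gene mean above the median of all probe sets), against 11313 of the 18193. Messenger RNA was measured on Affymetrix arrays in the round, flat and hypertrophic cell layers of the proximal tibial growth plate of wild-type Black Swiss mice at birth (age 0 days). The groups share strain, genotype, age and tissue, and differ in the layer, which was cut by hand from unfixed frozen sections. A sample pooled 18 to 20 tibiae from a litter of 9 to 10 pups, and 3 litters gave the biological triplicates (n = 3 litters per layer). No treatment was given, and the labels describe no step that keeps perichondrium, muscle or marrow vessels out of the cut pieces. Each replicate number was read as 1 litter across the layers, a link that the labels do not state for each sample. An array is called by its layer and litter, so that flat 1 is the flat layer of litter 1.

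Growth plate cartilage itself has no blood vessels. Vessels lie in the perichondrium around it and invade from the marrow side, where hypertrophic chondrocytes release vascular endothelial growth factor A and are replaced by bone. Endothelial cells are recognised by junction proteins such as VE-cadherin and by the VEGF, Tie and apelin receptors; pericytes are drawn to them by platelet-derived growth factor B, and smooth muscle cells of larger vessels contract through dedicated actin and myosin.

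RefSeq promoter sequence (GRCm38.p6) was matched for 24 of the 48 genes. The window read was the 250 bases before each start. It was searched on both strands for 4 motifs. CGGAAG is the strong form of the core bound by ETS factors, the family of the member Fli1. A weaker form of it, AGGAAG, occurs in many endothelial genes. ACGTG is a form of the core of the hypoxia response element, the only form searched, and the CArG box marks smooth muscle genes. AGGAAG was found in 9 of 24 genes (37.5%) and in 32.3% of the 27018 genes with a window of that length. CGGAAG was found in 1 (Tie1) against 15.3%, and ACGTG in 2 (Vegfa and Clec14a) against 18.5%. A gene was counted if any of its windows held a match. The Vegfa match lay in a window inside the gene, before an internal start (chr17:46025164-46025413). The window before the outer start of Vegfa (chr17:46032378-46032627) held 0. The CArG box was searched in its strict form only, CCWWWWWWGG with W for A or T. That form was in 0 of the 24 genes, Acta2 and Cnn1 among them, and in 1.62% of all genes. Forms with a mismatch were not counted: the Acta2 window holds CCCTATATGG and CCTTGTTTGG, each 1 base off the strict form. These are counts of letters, and a match is not a bound site. The windows of 3 endothelial genes that differed between layers are shown 5′ to 3′, with matches to AGGAAG in capitals (a match on the other strand reads CTTCCT). They are Emcn at chr3:137340828-137341077, with 2 matches, Egfl7 at chr2:26580833-26581082, with 3, and Cd34 at chr1:194938571-194938820, with 1, all on the plus strand. Further windows of Egfl7, not shown, held 1 and 0 matches. All windows shown hold a match, while those of Kdr, Cldn5 and Flt4, which also differed between layers, held 0. The Kdr window (chr5:75978456-75978705, minus strand) lay inside the gene, whose outer end is at 75979072, so the bases before its outer start were not read.
Emcn: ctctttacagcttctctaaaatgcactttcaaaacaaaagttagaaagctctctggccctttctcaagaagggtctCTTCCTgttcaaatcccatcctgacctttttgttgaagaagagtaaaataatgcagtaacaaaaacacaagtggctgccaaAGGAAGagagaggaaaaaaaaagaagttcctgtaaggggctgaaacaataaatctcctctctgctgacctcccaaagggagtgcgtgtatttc
Egfl7: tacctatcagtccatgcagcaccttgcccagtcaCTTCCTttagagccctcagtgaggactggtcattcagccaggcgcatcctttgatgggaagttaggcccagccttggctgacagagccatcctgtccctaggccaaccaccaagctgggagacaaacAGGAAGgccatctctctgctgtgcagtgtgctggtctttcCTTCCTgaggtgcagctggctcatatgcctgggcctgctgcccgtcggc
Cd34: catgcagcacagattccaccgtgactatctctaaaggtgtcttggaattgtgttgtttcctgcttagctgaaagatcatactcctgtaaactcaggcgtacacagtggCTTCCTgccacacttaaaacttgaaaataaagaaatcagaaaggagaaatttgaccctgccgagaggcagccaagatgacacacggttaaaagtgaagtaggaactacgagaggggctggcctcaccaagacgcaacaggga

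The arrays had median signals of 123 to 152, and precision is limited by having 9 of them. Round 1 stood apart in the 3'/5' signal ratio, a sign of RNA integrity: it was 4.25 for actin (elsewhere 1.45 to 2.06) and 2.59 for Gapdh (elsewhere 0.922 to 1.28). Skeletal muscle was scored as the average log2 deviation of 18 muscle genes from their own means. Flat 3 was highest at 1.46; the lowest flat array was at 0.43, the highest round array at -0.16 and the highest hypertrophic array at 0.58. All 18 muscle genes were higher in flat than in round. Their summed signal was 155419 to 253894, 364158 to 592302 and 153579 to 365009.9 in the 3 layers. Osteoclast markers, which mark the marrow edge, summed to 6535 to 8266, 13752 to 18691 and 73545 to 96442, with 8 of 9 tested higher in hypertrophic than in flat. Osteoblast markers summed to 4554 to 8059.9, 25562 to 52913 and 88589 to 109816, with 6 of 6 tested higher in flat than in round and 5 higher in hypertrophic than in flat. Macrophage markers summed to 12535 to 13551, 14083 to 16763 and 19684 to 24193, with 2 higher and 1 lower of 10 in the same contrast, and perichondrium and fibroblast markers to 324532 to 383237, 273034 to 397373 and 255225 to 287439, with 1 higher and 5 lower of 15. Erythroid markers summed to 2745 to 3728, 3413 to 3899.6 and 3989 to 5178, and chondrocyte markers, present in every layer, to 101375 to 133155, 76229 to 113312 and 122846 to 127059. The part of other cell types in the results that follow was not tested, apart from a fit with the muscle score.

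**Figure D1:**
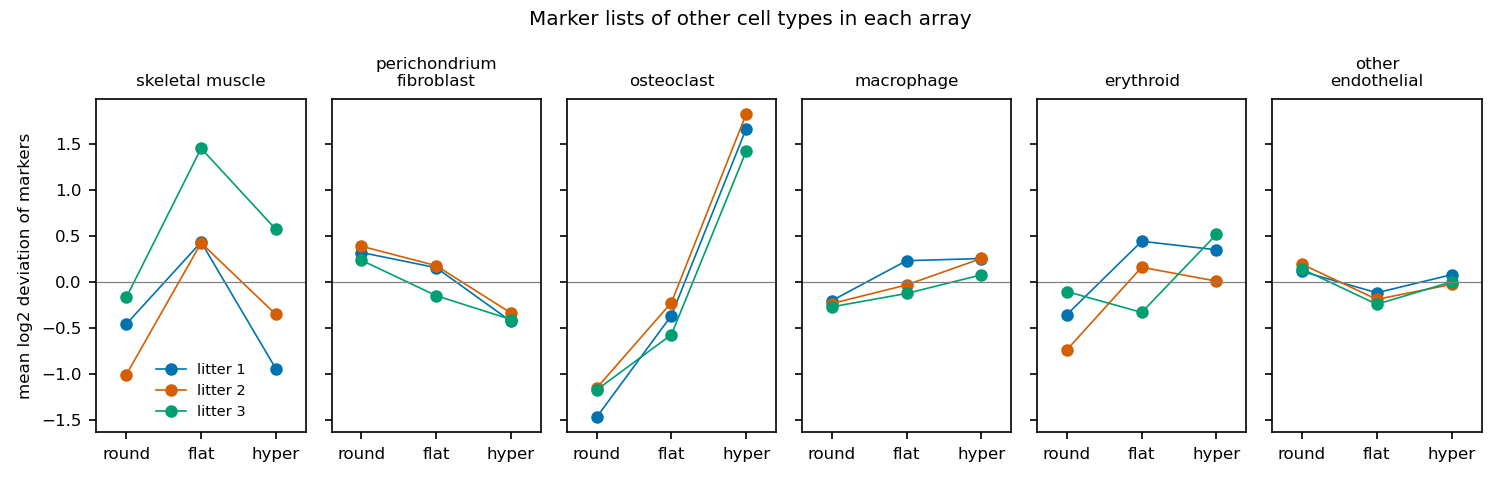
Mean log2 deviation of marker lists from their gene means (vertical axis) in the round, flat and hypertrophic layers, with a line for each of 3 litters. Skeletal muscle markers peaked in the flat layer of every litter and osteoclast markers in the hypertrophic layer, at 1.43 to 1.83.

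Vessel genes were measured in all 3 layers. The summed signal of 9 defining endothelial genes (Pecam1, Cdh5, Kdr, Tie1, Tek, Emcn, Esam, Cldn5 and Egfl7) was 12525 to 14644 in round arrays, 10150.0 to 11421 in flat arrays and 15718 to 17140.3 in hypertrophic arrays, so that the 3 ranges did not overlap. The order depends on the genes summed: 40 further endothelial genes outside the members summed to 71649 to 76383 in round, 47771 to 55746 in flat and 57633 to 60513 in hypertrophic arrays, with round and not hypertrophic highest. The arrays read whole tissue, so that fewer cells of a type and less RNA per cell cannot be told apart. Each of the 9 passed the filter, and bright probe sets weigh most in the sum. By the limma calls defined below, Cdh5, Cldn5 and Emcn of the 9 were higher in hypertrophic than in round. The rest of the 9 had no call there, at -0.01 (Kdr) to 0.43 (Tek). Of the endothelial surface genes and receptors outside the 9, Vwf and Thbd were lower, and Icam2, Flt4, Aplnr and S1pr1 higher. Signals are compared within a probe set and not between genes. The 2 members that stayed under the filter were not tested: Prox1, the lymphatic master factor, at 54.9, 56.9 and 68.6 in the round layer, 125, 40.3 and 27.7 in the flat layer and 1.78, 13.5 and 121 in the hypertrophic layer, and Cnn1, calponin of smooth muscle, at 123, 28.0 and 152 in the round layer, 244, 44.5 and 75.05 in the flat layer and 34.5, 24.3 and 23.8 in the hypertrophic layer (litters 1 to 3). Cnn1 lay lower in all hypertrophic than in all flat arrays, and the layers of Prox1 overlapped.

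**Figure D2:**
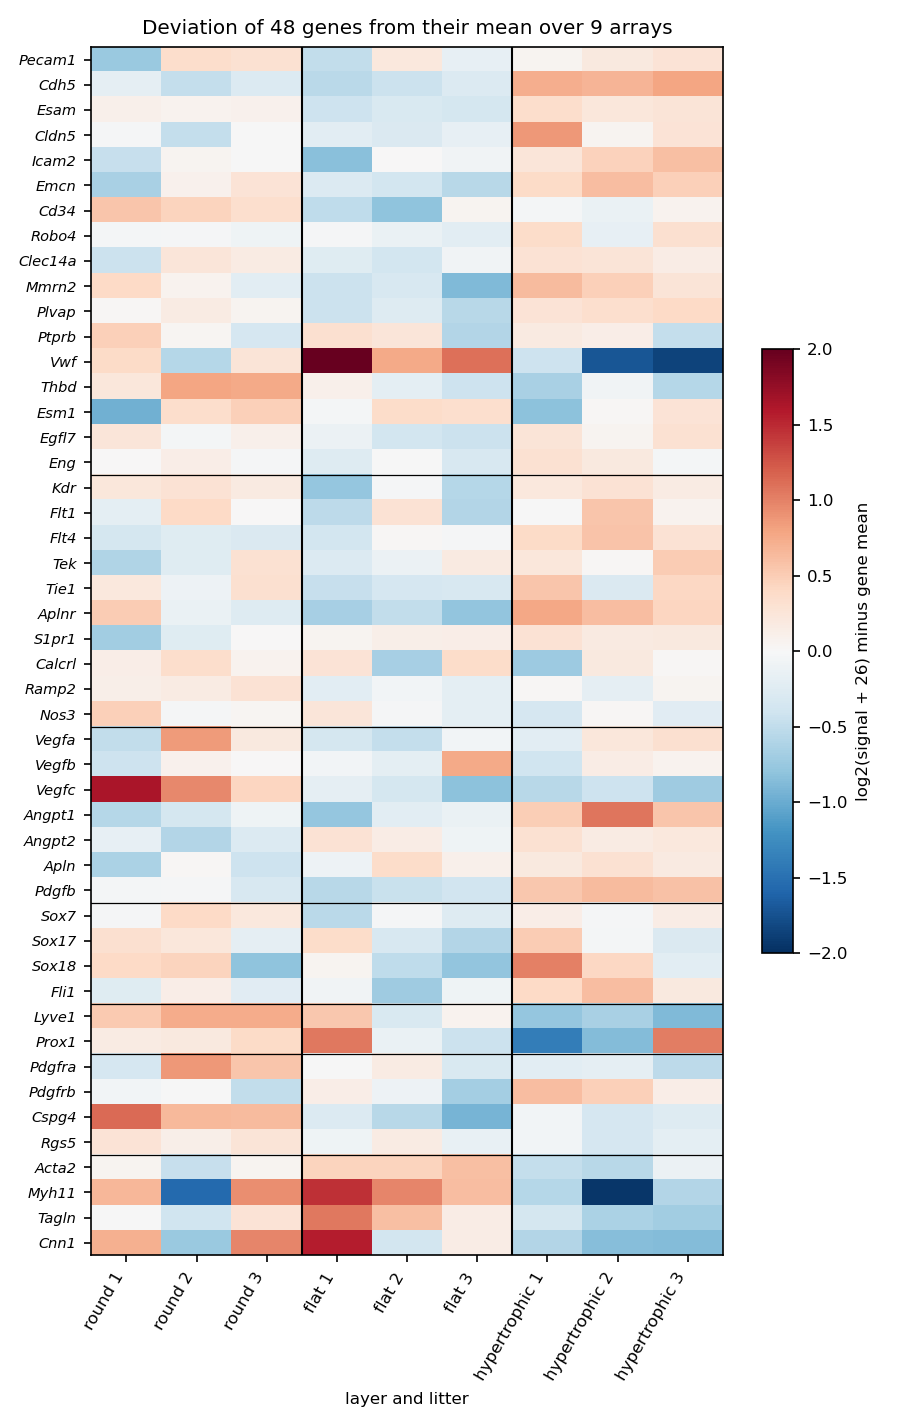
Deviation of log2(signal + 26) from each gene's mean over the 9 arrays for all 48 genes (rows, grouped by role with horizontal lines) in 9 arrays (columns, by layer and litter); colours saturate at a deviation of 2 in either direction. Esam, Plvap and Pdgfb are bluest in the 3 flat and reddest in the 3 hypertrophic arrays, while Vwf and Acta2 are reddest in the 3 flat arrays.

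Layers were compared with limma on log2(signal + 26), with litter as a block, over all 11313 tested genes, and a gene is called higher or lower where its Benjamini-Hochberg adjusted p was under 0.05. Differences are log2 values ± SE with n = 3 litters, and the scale understates the change of dim genes. Between the flat and round layers, 10 of 46 members were lower and 2 higher, which is 21.7% and 4.35%, against 8.64% and 8.39% of all tested genes. From the flat to the hypertrophic layer, 16 were higher and 5 lower (34.8% and 10.9%, against 6.12% and 5.22%). Between the hypertrophic and round layers, 12 were higher and 7 lower (26.1% and 15.2%, against 12.4% and 12.7%). The median member was at -0.22, 0.35 and 0.10, with the median of all tested genes at -0.01, -0.00 and 0.01. By the F test, 26 of the 46 members differed in some layer, which is 56.5%, against 28.4% of all genes. Every call went the same way in 3 of 3 litters, except 1 for Pdgfra. Arrays without overlap were counted too. Flat arrays lay wholly above round arrays for 4 members and wholly below for 14, against 12.0% and 13.3% of all genes (25.3% either way). Hypertrophic arrays lay wholly above flat arrays for 19 and below for 5 members, against 13.3% and 9.43% (22.7% either way). They lay above round arrays for 14 and below for 7, against 18.3% and 18.2% (36.5% either way). Where each array was instead centred at its median, the share of all hypertrophic against flat calls that were higher was 65.2% in place of 53.9%, and 19 members were higher and 5 lower.

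Where both contrasts of a layer passed in 1 direction, the gene was placed at that layer. Highest in the hypertrophic layer were 9 members (Angpt1, Aplnr, Cdh5, Cldn5, Emcn, Flt4, Icam2, Pdgfb and Pdgfrb; 4.19% of all genes were). Lowest in the flat layer were 6 members (Aplnr, Egfl7, Esam, Kdr, Mmrn2 and Plvap; 1.08%), and highest there were 2, Acta2 and Vwf (1.90%). Highest in the round layer were 3, Cspg4, Thbd and Vegfc (6.05%), and lowest in the hypertrophic layer 2, Lyve1 and Vwf (2.78%). Lowest in the round layer were 0, against 4.80%. These contrasts share arrays, so the placements are a description. Without the litter block, 6 members were lower and 1 higher in flat against round, 8 higher and 4 lower in hypertrophic against flat, and 4 higher and 5 lower in hypertrophic against round. Of the 52 calls, 26 held without each of the 9 arrays in turn. For the others, the arrays named are those that ended the call when left out singly. Each array left out also lowers the residual df, so a call can end with its difference little changed. Egfl7 in flat against round also ended on leaving out any hypertrophic array, though that contrast compares none of them. Single arrays moved the counts: higher in hypertrophic against flat fell from 16 to 8, 9 and 9 without hypertrophic 1, flat 1 and hypertrophic 3. Lower in flat against round fell from 10 to 5, 6, 6 and 6 without flat 1, flat 3, round 2 and round 3, and higher in that contrast rose from 2 to 4 and 3 without flat 3 and round 3. Higher in hypertrophic against round fell from 12 to 6, 6, 7 and 7 without hypertrophic 1, hypertrophic 3, hypertrophic 2 and round 2. Placements moved as well. Highest in hypertrophic were 5, 5 and 3 without hypertrophic 1, 2 and 3, and lowest in flat 0, 3, 3 and 3 without flat 1, flat 3, round 2 and round 3. Highest in round were 5 without round 1, highest in flat 4 without flat 3, and lowest in hypertrophic 1 without flat 1, hypertrophic 1 or hypertrophic 3. With the skeletal muscle score as a covariate, which itself differs between the flat and the other layers, 2 members were lower and 0 higher in flat against round, 2 higher and 2 lower in hypertrophic against flat, and 13 higher and 6 lower in hypertrophic against round. Cspg4 and Vegfc in the first, and Aplnr, Cdh5 and Vwf in the second, kept their calls under that covariate.

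**Figure D3:**
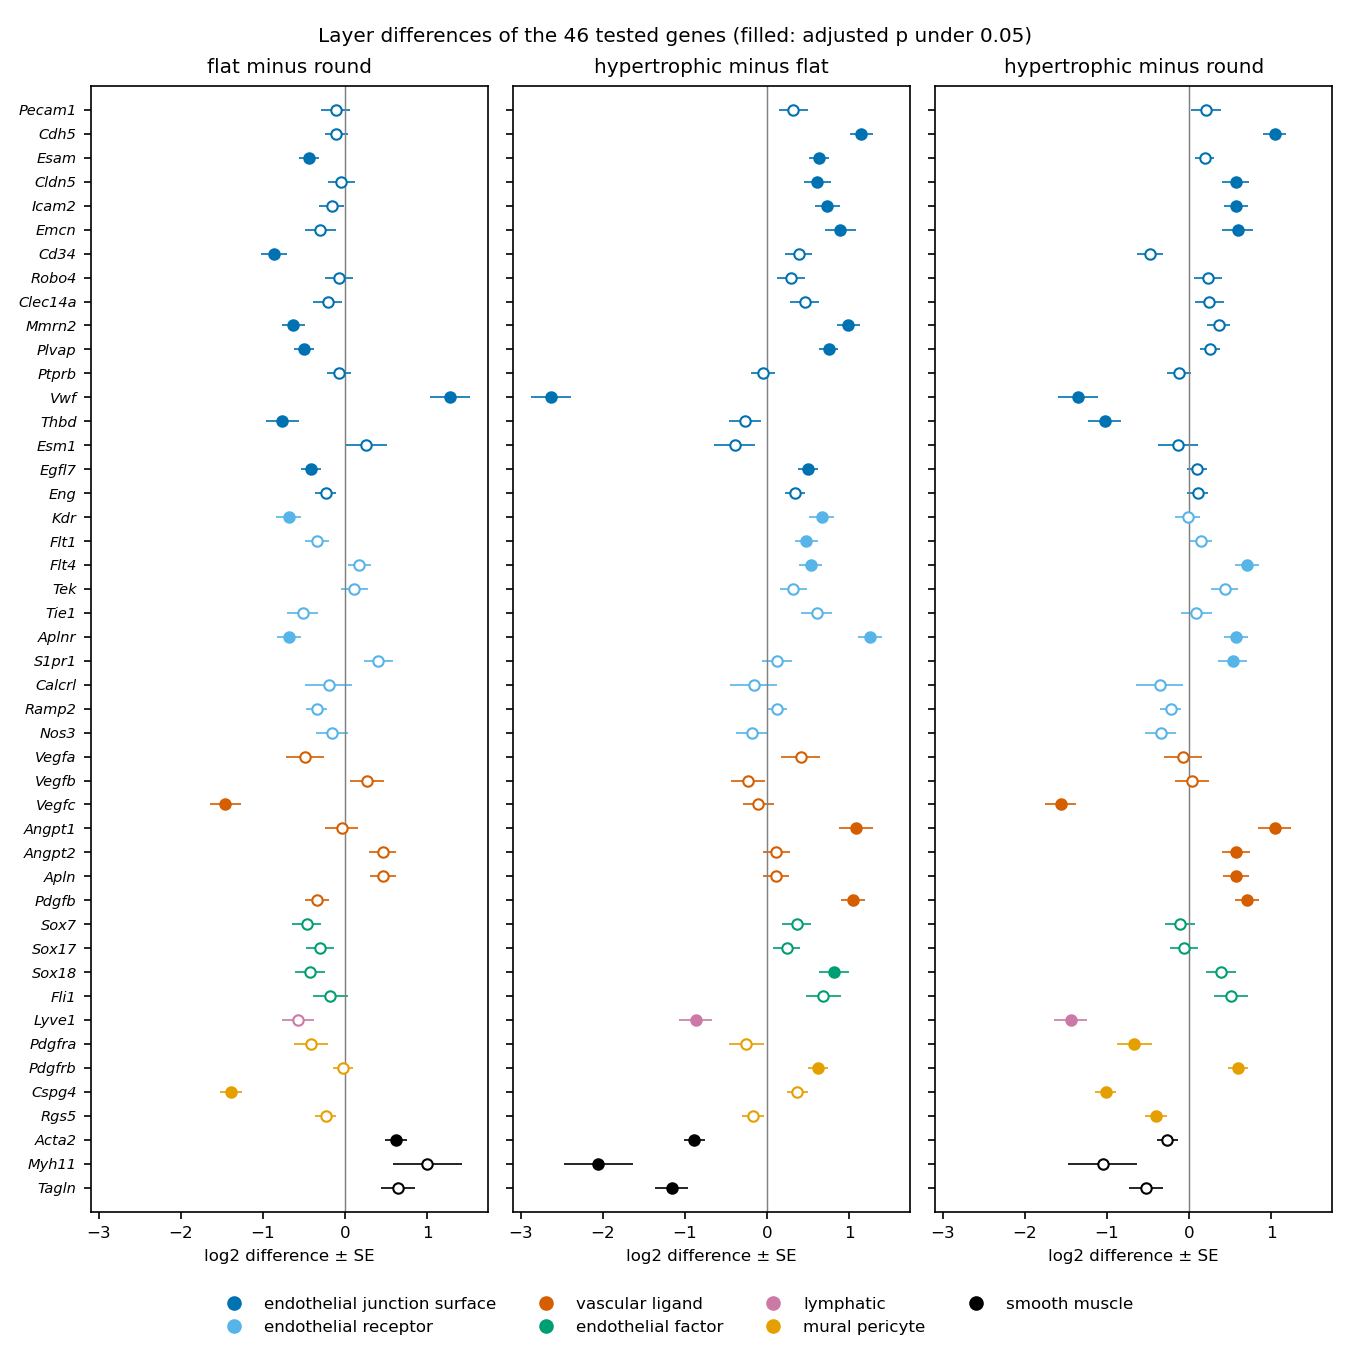
Log2 difference ± SE (horizontal axis) of the 46 tested members (rows, coloured by role) in the 3 contrasts; filled points have limma adjusted p under 0.05. In the middle panel 16 filled points lie to the right and 5 to the left, Vwf the farthest at -2.62.

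Among the 17 endothelial junction and surface genes, 8 were higher and 1 lower in hypertrophic than in flat, and 6 lower and 1 higher in flat than in round. Cdh5, VE-cadherin of endothelial junctions, had signals of 873, 708 and 823 in the round layer, 675, 730.3 and 819 in the flat layer and 1663, 1621 and 1734 in the hypertrophic layer in litters 1 to 3. Every hypertrophic array was above all others, and the round and flat arrays overlapped. Its difference was 1.15 ± 0.14 (adjusted p = 0.000298) against the flat and 1.04 ± 0.14 (adjusted p = 0.000176) against the round layer, seen in 3 of 3 litters, and both calls held under every alternative run. Mmrn2, a matrix protein of the vessel wall, read 1698, 1345 and 1101 in the round layer, 944, 1022 and 683 in the flat layer and 1998, 1782 and 1526 in the hypertrophic layer. All flat arrays were below all others. Mmrn2 was higher in hypertrophic than in flat by 0.99 ± 0.14 (adjusted p = 0.000766) and lower in flat than in round, at -0.63 ± 0.14 (adjusted p = 0.00788), a call lost without flat 1 (adjusted p 0.055; 0.00553 to 0.259 over all alternatives). A further Mmrn2 probe set gave 1.10 for hypertrophic minus flat, and the others 0.11 and 0.52. Plvap, which forms the diaphragms of fenestrated vessels, read 2657, 2911 and 2723 in the round layer, 1931, 2175 and 1762 in the flat layer and 3147, 3311 and 3429.7 in the hypertrophic layer. The layers did not overlap, with the flat lowest and the hypertrophic highest. Plvap differed by 0.75 ± 0.12 (adjusted p = 0.002) between hypertrophic and flat, and by -0.50 ± 0.12 (adjusted p = 0.0139) between flat and round, the second lost without round 2, round 3, flat 1 or flat 3 (adjusted p 0.0507 to 0.0709; 0.01 to 0.438 over all alternatives). Esam, an adhesion molecule of tight junctions, had mean signals of 2399 ± 19.6, 1763 ± 71.7 and 2745 ± 126 (SD). Esam followed the order of Plvap, at 0.63 ± 0.12 (adjusted p = 0.00489) and -0.44 ± 0.12 (adjusted p = 0.0239), the second lost without round 2, round 3, flat 1 or flat 3 (adjusted p 0.0605 to 0.124; 0.02 to 0.604 over all alternatives).

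Another 3 genes were higher in the hypertrophic layer than in both others, with calls that ended when some arrays were left out singly. Emcn, endomucin, known as a marker of the vessels at the cartilage to bone front, read 973, 1624 and 1858 in the round layer, 1268, 1182 and 1040.4 in the flat layer and 2019.7, 2381 and 2147 in the hypertrophic layer in litters 1 to 3. The hypertrophic arrays were above all others. Emcn differed by 0.89 ± 0.19 (adjusted p = 0.00981) from flat, lost without flat 2, flat 3, hypertrophic 1 or hypertrophic 2 (adjusted p 0.0505 to 0.0634; 0.000927 to 0.752 over all alternatives). Against round it differed by 0.59 ± 0.19 (adjusted p = 0.0381), lost without round 1, round 2, hypertrophic 1, hypertrophic 2 or hypertrophic 3 (adjusted p 0.0827 to 0.159; 0.00766 to 0.159 over all alternatives); without round 1 the difference was 0.32, and that array read the lowest round signal. Icam2, an endothelial adhesion molecule, had mean signals of 930.2 ± 173, 846 ± 251 and 1385 ± 172. Its differences were 0.73 ± 0.15 (adjusted p = 0.00833) and 0.57 ± 0.15 (adjusted p = 0.0149) against flat and round. The first was lost without flat 1 or hypertrophic 1 (adjusted p 0.0647 to 0.0688; 0.00541 to 0.396 over all alternatives), the second without round 2, round 3, hypertrophic 1 or hypertrophic 3 (adjusted p 0.0555 to 0.101; 0.0128 to 0.122 over all alternatives). Cldn5, claudin of endothelial tight junctions, read 1079, 779.7 and 1088 in the round layer, 946, 892 and 983 in the flat layer and 2023, 1138 and 1328 in the hypertrophic layer, with hypertrophic 1 far above the rest. Its differences of 0.61 ± 0.17 (adjusted p = 0.0321) and 0.57 ± 0.17 (adjusted p = 0.0247) were lost, in turn, without flat 1, flat 3, hypertrophic 1, hypertrophic 2 or hypertrophic 3 (adjusted p 0.0529 to 0.213; 0.0198 to 0.822 over all alternatives) and without round 1, round 2, hypertrophic 1 or hypertrophic 2 (adjusted p 0.0549 to 0.176; 0.00997 to 0.176 over all alternatives); without hypertrophic 1 the difference from round was 0.37. Egfl7, a secreted endothelial factor, was lowest in the flat layer (2704 ± 275, 2032 ± 239.6 and 2887 ± 259). Its difference of -0.41 ± 0.12 (adjusted p = 0.0387) was lost on leaving out any 1 of the 9 arrays (adjusted p 0.0515 to 0.163; 0.0263 to 0.394 over all alternatives), and that of 0.50 ± 0.12 (adjusted p = 0.0195) without flat 1, flat 3, hypertrophic 1, hypertrophic 2 or hypertrophic 3 (adjusted p 0.0562 to 0.139; 0.0106 to 0.261 over all alternatives). The Egfl7 probe set carries a suffix used for sets that can bind other transcripts.

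The remaining surface genes went other ways. Vwf, von Willebrand factor, stored by endothelial cells and platelets, read 447, 216 and 407 in the round layer, 1462, 588 and 749 in the flat layer and 246, 84.6 and 74.4 in the hypertrophic layer. Flat arrays were above all others, and 2 of the hypertrophic arrays were below the round ones. Vwf was higher in flat than in round by 1.28 ± 0.24 (adjusted p = 0.00321), lower in hypertrophic than in flat, at -2.62 ± 0.24 (adjusted p = 5.23e-05), and lower in hypertrophic than in round, at -1.35 ± 0.24 (adjusted p = 0.00153). Flat against round did not pass without the litter block (adjusted p = 0.0869; 0.00096 to 0.0869 over all alternatives). With the muscle score as a covariate Vwf was at 2.24 in flat against round (adjusted p = 0.0503) and -3.36 in hypertrophic against flat (adjusted p = 0.00553). Thbd, the thrombin receptor thrombomodulin, had signals of 1115, 1662 and 1627 in the round layer, 1023, 827 and 704 in the flat layer and 593, 899 and 632 in the hypertrophic layer. All round arrays exceeded the others. Thbd was lower in hypertrophic than in round, at -1.03 ± 0.20 (adjusted p = 0.0023) in every alternative, and lower in flat than in round, at -0.76 ± 0.20 (adjusted p = 0.0193), a call lost without round 2, round 3, flat 2 or flat 3 (adjusted p 0.0805 to 0.105; 0.00395 to 0.691 over all alternatives). Cd34, on endothelial and progenitor cells, read 4796, 4410.2 and 4111 in the round layer, 2284, 1856 and 3355 in the flat layer and 3163, 2971 and 3424 in the hypertrophic layer, with the round arrays above all others. Cd34 fell by 0.86 from round to flat (SE 0.16, adjusted p = 0.00304), and that call held without each array. The 6 surface genes with no call were Pecam1 (CD31), Robo4, Clec14a, Ptprb, Esm1 and Eng. Pecam1, the general endothelial adhesion molecule, read 1008, 2192 and 2121 in the round layer, 1214, 1988 and 1527 in the flat layer and 1779.7, 1973 and 2069.9 in the hypertrophic layer, and its layers overlapped. Its round 1 signal was the lowest of the 9, on the array with the high 3'/5' ratios, and a link between these was not tested. Within its layer round 1 was lowest for 20 and highest for 15 of 46 members, against 38.6% and 40.1% of all tested genes. Signals ran from 493 to 747 for Robo4, a guidance receptor of endothelium, 659.9 to 1109 for the lectin Clec14a, 559.9 to 1198 for Ptprb, the phosphatase that acts on Tek, 123 to 379 for Esm1, a marker of sprouting tips, and 1896 to 2933 for the TGF-beta co-receptor Eng.

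**Figure D4:**
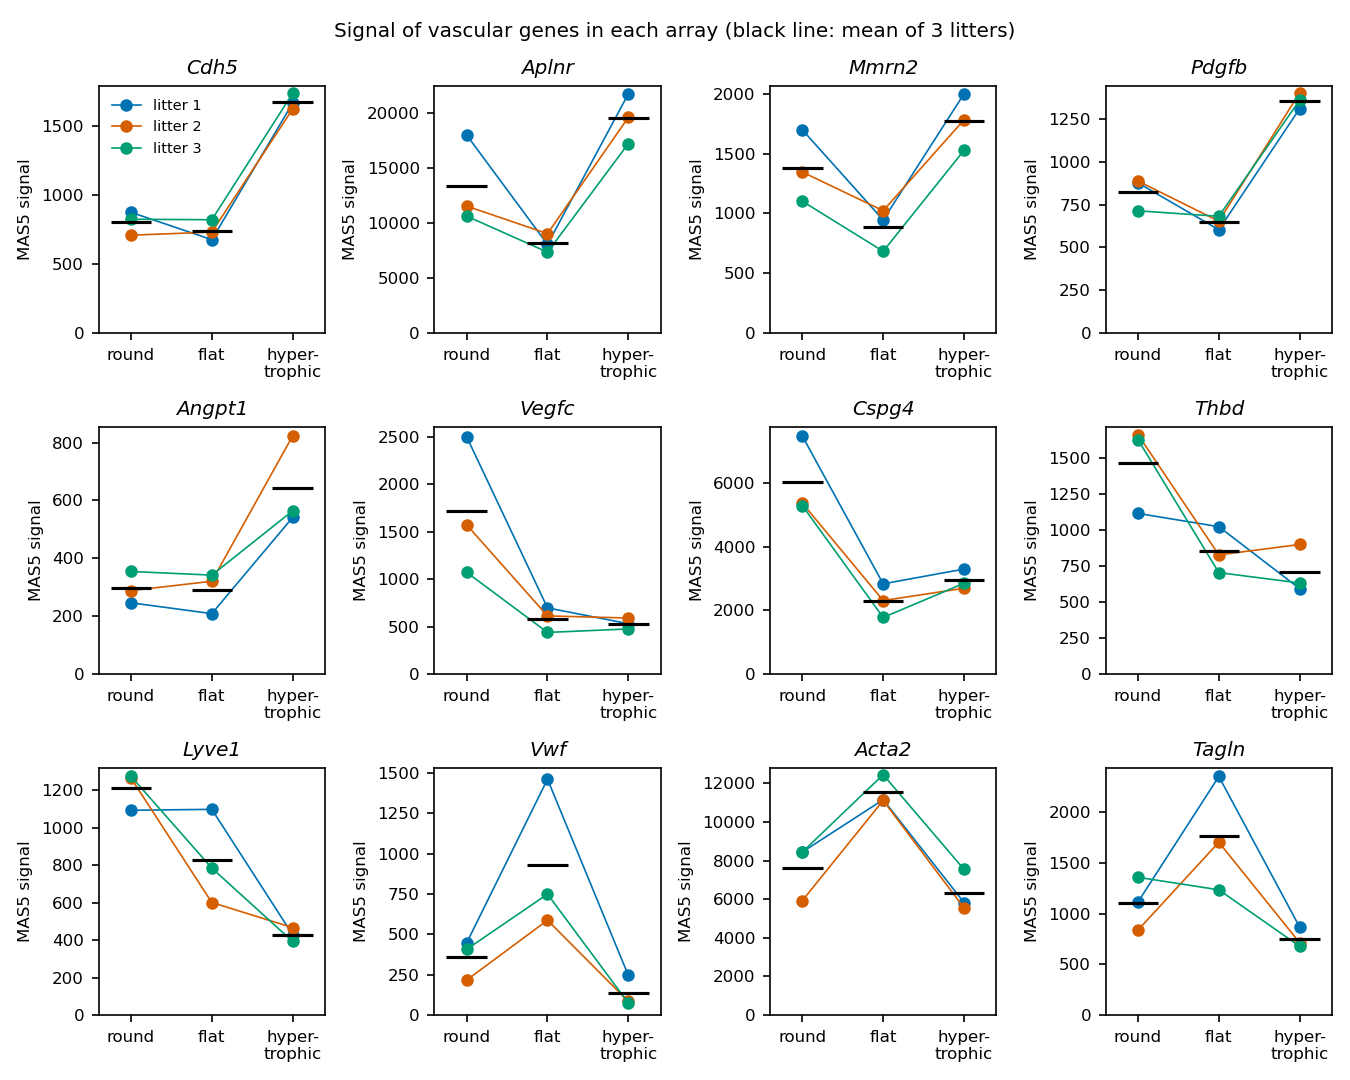
MAS5 signal (vertical axis, from 0) of 12 members in the round, flat and hypertrophic layers; points and lines are litters 1 to 3 and black bars the mean of 3 litters. Cdh5 and Pdgfb sit highest in all 3 hypertrophic arrays, Vegfc and Cspg4 in all 3 round arrays, and Vwf and Acta2 in all 3 flat arrays.

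Of the 10 endothelial receptors and signalling proteins, 4 were higher and 0 lower in hypertrophic than in flat, and 2 lower and 0 higher in flat than in round. Aplnr, the apelin receptor of sprouting endothelium, had signals of 17974, 11520.1 and 10612 in the round layer, 8044, 9024 and 7339.5 in the flat layer and 21707, 19576 and 17194 in the hypertrophic layer in litters 1 to 3. The flat arrays were below all others, and the hypertrophic arrays were above round 2 and round 3, while round 1 lay among them. Aplnr was higher in hypertrophic than in flat by 1.26 ± 0.15 (adjusted p = 0.000225), in all alternatives. A second probe set gave 0.96 (adjusted p = 0.0024). It was lower in flat than in round, at -0.68 ± 0.15 (adjusted p = 0.00674), lost without flat 1 (adjusted p 0.0635; 0.00237 to 0.0652 over all alternatives), and higher in hypertrophic than in round, at 0.58 ± 0.15 (adjusted p = 0.0119), lost without round 2, round 3, hypertrophic 2 or hypertrophic 3 (adjusted p 0.057 to 0.085; 9.73e-05 to 0.085 over all alternatives). Kdr, the main VEGF receptor of blood vessels, read 2005, 2113 and 1947 in the round layer, 997, 1691 and 1152 in the flat layer and 1990.4, 2094 and 1919 in the hypertrophic layer. The flat layer was below both others, which overlapped. Kdr differed by -0.68 ± 0.15 (adjusted p = 0.00792) between flat and round, lost without flat 1 (adjusted p 0.0649; 0.0032 to 0.408 over all alternatives), and by 0.67 ± 0.15 (adjusted p = 0.013) between hypertrophic and flat, lost without flat 1, flat 3, hypertrophic 1 or hypertrophic 3 (adjusted p 0.0509 to 0.1; 0.00605 to 0.348 over all alternatives). Flt4, the receptor for VEGF-C on lymphatic and sprouting vessels, read 833, 901 and 875 in the round layer, 826, 1092 and 1056 in the flat layer and 1400.0, 1602 and 1319 in the hypertrophic layer. All hypertrophic arrays were above the rest. Flt4 was higher in hypertrophic than in round by 0.71 ± 0.14 (adjusted p = 0.00291) in all alternatives, and than in flat by 0.53 ± 0.14 (adjusted p = 0.0293), lost without flat 1, flat 2, hypertrophic 1, hypertrophic 2 or hypertrophic 3 (adjusted p 0.0596 to 0.167; 0.0164 to 0.43 over all alternatives).

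Flt1, the decoy VEGF receptor, passed narrowly in hypertrophic against flat, at 0.48 ± 0.14 (adjusted p = 0.0496), with overlapping layers (1125 ± 246, 906 ± 338 and 1243 ± 281). That call was lost without round 2, flat 1, flat 3, hypertrophic 1, hypertrophic 2 or hypertrophic 3 (adjusted p 0.0683 to 0.204; 0.026 to 0.608 over all alternatives). S1pr1, the sphingosine phosphate receptor that stabilises vessels, read 352, 492 and 593 in the round layer, 611, 638 and 645 in the flat layer and 723, 667 and 679 in the hypertrophic layer, without overlap between any layers. Its hypertrophic minus round difference of 0.53 ± 0.18 (adjusted p = 0.048) was lost without round 1, round 2, flat 1, flat 2, flat 3, hypertrophic 1, hypertrophic 2 or hypertrophic 3 (adjusted p 0.0547 to 0.236; 0.0101 to 0.236 over all alternatives), and was 0.33 without round 1, the lowest of the arrays. The 5 receptors and signalling proteins with no call were Tek and Tie1 (the angiopoietin receptor and its partner), Calcrl and Ramp2 (the adrenomedullin receptor and its cofactor) and Nos3, endothelial nitric oxide synthase. Tie1 read lower in all flat arrays (428 to 472) than in all others (487 to 895). Ramp2 read 2553 to 2865 in the round layer, above all other arrays. Tek (494 to 1097), Calcrl (310.5 to 688) and Nos3 (413 to 746) overlapped in every pair of layers.

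Of the 7 vessel growth factors, 4 were higher and 1 lower in hypertrophic than in round, 2 higher in hypertrophic than in flat and 1 lower in flat than in round. Vegfc, the ligand of Flt4 and driver of lymphatic growth, read 2499.6, 1571 and 1072 in the round layer, 697, 612 and 438 in the flat layer and 530.5, 590.1 and 475 in the hypertrophic layer in litters 1 to 3. Round arrays were above all others, and the flat and hypertrophic arrays overlapped. Vegfc was lower in flat than in round, at -1.46 ± 0.19 (adjusted p = 0.000232), and in hypertrophic than in round, at -1.56 ± 0.19 (adjusted p = 6.96e-05), in every alternative. The other 2 probe sets of Vegfc gave -1.58 and -1.95 in the first of these contrasts, and -1.94 and -1.55 in the second. Pdgfb, the signal of endothelial cells to pericytes, read 877, 888 and 714 in the round layer, 603, 653 and 682 in the flat layer and 1311, 1403 and 1361 in the hypertrophic layer. Hypertrophic arrays were highest and flat arrays lowest, with no overlap. It was higher in hypertrophic than in flat by 1.04 ± 0.15 (adjusted p = 0.000769) and than in round by 0.71 ± 0.15 (adjusted p = 0.00372); without any 1 array both calls held. Its second probe set gave 0.42 and 0.32 and passed in neither (adjusted p = 0.47 and 0.49). Angpt1, the Tie2 ligand that steadies vessels, read 246, 288 and 355 in the round layer, 209, 321 and 342 in the flat layer and 541, 823 and 564 in the hypertrophic layer, with the hypertrophic layer above the rest. Its differences were 1.08 ± 0.20 (adjusted p = 0.00504) and 1.04 ± 0.20 (adjusted p = 0.00266) against flat and round, and both held without each array.

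Angpt2, the context-dependent Tie2 ligand, and Apln, the apelin peptide, were higher in hypertrophic than in round. Angpt2 had mean signals of 426 ± 65.6, 594 ± 80.6 and 642 ± 34.6 and differed by 0.57 ± 0.17 (adjusted p = 0.0245), lost without round 2, hypertrophic 1, hypertrophic 2 or hypertrophic 3 (adjusted p 0.0608 to 0.131; 0.021 to 0.568 over all alternatives). With the mean of its probe sets in place of 1 the sign turned, at -0.20 (adjusted p = 0.568). Apln read 482 ± 123, 668 ± 115 and 717 ± 37.8 and differed by 0.57 ± 0.16 (adjusted p = 0.0208), lost without round 1, round 3, hypertrophic 1 or hypertrophic 3 (adjusted p 0.0628 to 0.124; 0.0152 to 0.124 over all alternatives). Vegfa, the VEGF that hypertrophic cartilage is known for, read 431, 1139.9 and 711 in the round layer, 476, 435 and 592 in the flat layer and 529.5, 726 and 776 in the hypertrophic layer, and passed in no contrast. Its layers overlapped, and the round layer had both the highest and the lowest array, round 2 and round 1. A second Vegfa probe set gave 0.11, -0.09 and 0.02 for flat against round, for hypertrophic against flat and for hypertrophic against round, with adjusted p of 0.905, 0.936 and 0.981. Vegfb, a VEGF with little part in sprouting, read 404, 581 and 549 in the round layer, 522, 472 and 944 in the flat layer and 406, 605 and 574 in the hypertrophic layer and had no call; flat 3, the array with the most muscle signal, was its highest.

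Of the 4 endothelial transcription factors, Sox18, which acts in vessel and lymphatic formation, was the 1 that passed, in hypertrophic against flat, at 0.82 ± 0.18 (adjusted p = 0.0121), lost without flat 1, flat 2, hypertrophic 1 or hypertrophic 3 (adjusted p 0.0576 to 0.0836; 0.00177 to 0.452 over all alternatives). It read 1135, 1172 and 483 in the round layer, 897, 595 and 484 in the flat layer and 1746, 1157 and 737 in the hypertrophic layer. Litter 3 was low in every layer, so that the layers overlapped while each litter was higher in hypertrophic than in flat. Without the litter block the same difference had adjusted p = 0.27. Sox7 and Sox17, its relatives, ranged from 334 to 664 and from 365 to 811. The flat arrays of Sox7 lay below its round arrays. Fli1, an ETS factor of endothelial and blood cells, was at 639 ± 101, 569.5 ± 137 and 921 ± 139, with the hypertrophic arrays above all others, but did not pass (adjusted p = 0.0549 against flat and 0.0978 against round).

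Lyve1, the hyaluronan receptor of lymphatic endothelium and of some macrophages, was lowest in the hypertrophic layer. It read 1092, 1264 and 1274 in the round layer, 1097, 600.1 and 784 in the flat layer and 428, 466 and 392 in the hypertrophic layer in litters 1 to 3. All hypertrophic arrays were below the others, and round and flat overlapped through flat 1. Lyve1 was lower in hypertrophic than in round, at -1.44 ± 0.20 (adjusted p = 0.000201), in every alternative, and than in flat, at -0.87 ± 0.20 (adjusted p = 0.014), lost without flat 1, hypertrophic 1 or hypertrophic 3 (adjusted p 0.083 to 0.103; 0.00402 to 0.243 over all alternatives). A second probe set gave -1.71 and -1.06 (adjusted p = 1.08e-05 and 0.00167). With Prox1 under the filter, Lyve1 and Flt4 were the lymphatic genes measured, and they were highest in different layers. The summed signal of 10 macrophage markers was highest in the hypertrophic layer, where Lyve1 was lowest. Their mean log2 deviation overlapped between flat (-0.12 to 0.24) and hypertrophic arrays (0.08 to 0.26). Between these layers 2 markers were called higher and 1 lower in hypertrophic. The part of macrophages in the Lyve1 values was not tested.

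Pericyte and mesenchymal genes did not move as 1 group. All 4 passed between hypertrophic and round, 3 lower and 1 higher. Cspg4, the NG2 proteoglycan of pericytes, also made by immature chondrocytes, read 7492, 5381 and 5303 in the round layer, 2839, 2313 and 1780.3 in the flat layer and 3305, 2701 and 2856 in the hypertrophic layer. Round arrays were above all others. Cspg4 was lower in flat than in round, at -1.39 ± 0.13 (adjusted p = 2.23e-05), and in hypertrophic than in round, at -1.02 ± 0.13 (adjusted p = 0.000107), in every alternative. A second probe set gave -0.89 and -0.95 (adjusted p = 0.00476 and 0.00209). Pdgfrb, the receptor by which pericytes answer Pdgfb, went the other way, at 4601, 4767 and 3391 in the round layer, 5271, 4457 and 2994 in the flat layer and 7352, 6682 and 5277 in the hypertrophic layer. Hypertrophic arrays were highest, and litter 3 was the lowest in each layer. It was higher in hypertrophic than in flat by 0.62 ± 0.12 (adjusted p = 0.00574), lost without hypertrophic 3 (adjusted p 0.0525; 0.0019 to 0.323 over all alternatives), and than in round by 0.60 ± 0.12 (adjusted p = 0.00322), kept without each array. Without the litter block these had adjusted p = 0.147 and 0.0868. Its second probe set gave 0.53 and 0.55 without passing. Pdgfra, on mesenchymal progenitors and fibroblasts, was at 6475 ± 2486, 4626 ± 741 and 3875 ± 507, with round 1 at 3772, against 8664 and 6989.7 in round 2 and round 3. Its difference of -0.66 ± 0.21 from round to hypertrophic, in 2 of 3 litters (adjusted p = 0.0365), was lost without round 2, round 3, hypertrophic 2 or hypertrophic 3 (adjusted p 0.164 to 0.194; 7.95e-06 to 0.194 over all alternatives), and was -1.04 without round 1. Rgs5, a G protein regulator of pericytes, was at 7978 ± 467, 6804 ± 812 and 6039.8 ± 589, and differed by -0.40 ± 0.13 (adjusted p = 0.0395) between hypertrophic and round, lost without round 1, round 2, round 3, flat 1, hypertrophic 1, hypertrophic 2 or hypertrophic 3 (adjusted p 0.0537 to 0.231; 0.0192 to 0.979 over all alternatives). The other 3 probe sets of Rgs5 gave 0.13, 0.19 and 0.04 and did not pass.

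All 3 smooth muscle genes tested were lower in hypertrophic than in flat, and 1 was higher in flat than in round. Acta2, smooth muscle actin, read 8445, 5928 and 8444 in the round layer, 11156, 11116 and 12454 in the flat layer and 5829, 5549 and 7549 in the hypertrophic layer. Flat arrays were above all others. It was higher in flat than in round by 0.62 ± 0.13 (adjusted p = 0.00537) and lower in hypertrophic than in flat, at -0.88 ± 0.13 (adjusted p = 0.00103). Tagln, transgelin, which binds that actin, read 1114, 837 and 1357 in the round layer, 2349.8, 1702 and 1233 in the flat layer and 866, 712 and 677 in the hypertrophic layer, and Myh11, the smooth muscle myosin heavy chain, 298, 43.2 and 362 in the round layer, 535, 374 and 286 in the flat layer and 110.3, 26.9 and 109.7 in the hypertrophic layer. In both, the hypertrophic arrays lay below the flat ones and the round arrays overlapped the flat. Tagln differed by -1.16 ± 0.20 (adjusted p = 0.00332) and Myh11 by -2.05 ± 0.42 (adjusted p = 0.00835) between hypertrophic and flat. Without flat 2 the Myh11 difference was at -1.46, and without the litter block it had adjusted p = 0.0752 (0.00115 to 0.288 over all alternatives). These calls otherwise held without each array. The skeletal muscle markers moved with them, 18 of 18 higher in flat than in round and 16 lower in hypertrophic than in flat. With the muscle score as a covariate Acta2 was at 0.22 and -0.58, Tagln at -1.50 and Myh11 at -2.09, with no call among them (adjusted p = 0.748, 0.248, 0.0981 and 0.288). Within the flat layer the array with the most skeletal muscle signal, flat 3, was highest for Acta2 and lowest for Tagln and Myh11. The Acta2 probe set has a suffix for sets that can bind related transcripts, which leaves actin paralogs uncertain; with the mean of its probe sets the flat minus round difference was 0.32 (adjusted p = 0.355).

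Other vascular genes were read from lists that hold no member. Of 40 further endothelial genes, 32 were tested. In flat against round 0 were higher and 11 lower, with a median of -0.34. In hypertrophic against flat 8 were higher and 1 lower (median 0.39). In hypertrophic against round 2 were higher and 9 lower (median 0.02). As higher and lower shares these were 0% and 34.4%, 25% and 3.1%, and 6.25% and 28.1%. All tested genes had shares of 8.39% and 8.64%, 6.12% and 5.22%, and 12.4% and 12.7%. The largest falls from round to flat were those of Erg, an ETS factor also made in joint cartilage (-1.91 ± 0.18), Efnb2, the arterial ephrin (-1.15 ± 0.15), and Podxl, podocalyxin (-0.89 ± 0.13). Podxl turned to 0.23 and Efnb2 was at -0.49 with the mean of their probe sets, and neither passed. With the muscle score as a covariate these 3 flat against round calls were lost (adjusted p = 0.0944 for Erg, 0.256 for Efnb2 and 0.0727 for Podxl). Erg also had the largest fall from round to hypertrophic (-2.19 ± 0.18), followed by Cav1, caveolin (-1.17 ± 0.13), and Efnb2 (-1.04 ± 0.15). With the mean of its probe sets Efnb2 was there at -0.37 (adjusted p = 0.311). Highest in hypertrophic against flat were Gimap6, a GTPase of the immune system and endothelium (0.87 ± 0.24), Ecscr, an endothelial migration receptor (0.83 ± 0.15), and the ETS factor Ets1 (0.80 ± 0.15). The Gimap6 call was lost without flat 2, flat 3, hypertrophic 1 or hypertrophic 3 (adjusted p 0.111 to 0.209; 0.00093 to 0.793 over all alternatives), and with the muscle score as a covariate it was at -0.23. That covariate also ended the calls of Ecscr, at 1.17 (adjusted p = 0.0723), and Ets1, at 0.19 (adjusted p = 0.736).

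Of 26 further genes of the VEGF, Tie, apelin, sphingosine phosphate and PDGF pathways, 21 were tested. In flat against round 5 were higher and 3 lower, in hypertrophic against flat 6 and 0 and in hypertrophic against round 8 and 2. Medians were -0.01, 0.41 and 0.46. As higher and lower shares the counts were 23.8% and 14.3%, 28.6% and 0%, and 38.1% and 9.52%. Of all tested genes the shares were 8.39% and 8.64%, 6.12% and 5.22%, and 12.4% and 12.7%. S1pr3, a sphingosine phosphate receptor, was higher at both steps, by 1.33 ± 0.12 and 1.10 ± 0.12, and by 2.43 ± 0.12 end to end. Nrp2, the co-receptor of VEGF-C, was higher by 0.83 ± 0.19, 1.02 ± 0.19 and 1.85 ± 0.19 in those contrasts. Its first step was lost without flat 1 (adjusted p 0.0599; 0.0044 to 0.0607 over all alternatives), and was 0.52 without round 1. With the muscle score as a covariate Nrp2 was at 2.02 in flat against round and, no longer called, at 0.11 (adjusted p = 0.878) in hypertrophic against flat. S1pr3 lost its call in hypertrophic against flat with the covariate, at 0.87 (adjusted p = 0.074). Ramp1, a partner of the Calcrl receptor, was higher in flat and hypertrophic than in round (1.70 ± 0.15 and 1.86 ± 0.15), and Pdgfd, a ligand of Pdgfrb, in hypertrophic than in flat, at 1.23 ± 0.25, lost without hypertrophic 1 or hypertrophic 2 (adjusted p 0.058 to 0.0731; 0.00313 to 0.371 over all alternatives) and with the covariate. Of 25 further pericyte and smooth muscle genes, 21 were tested. In flat against round 8 were higher and 4 lower, in hypertrophic against flat 1 and 6 and in hypertrophic against round 4 and 4. Medians were 0.27, -0.21 and 0.01. As shares these were 38.1% and 19.0%, 4.76% and 28.6%, and 19.0% and 19.0%, beside the shares of all tested genes given above. The largest lower calls against round were Ndufa4l2, a mitochondrial protein induced by hypoxia (-2.08 ± 0.14 and -2.29 ± 0.14 against round in flat and hypertrophic), Rgs4, a G protein regulator (-1.66 ± 0.26 and -1.74 ± 0.26), and Tbx18 (-1.58 ± 0.22 in hypertrophic against round). With the covariate the flat against round call of Rgs4 was lost, at -1.04 (adjusted p = 0.455). The 3 largest of the 6 lower calls in hypertrophic against flat were Actg2, enteric smooth muscle actin, at -1.27 ± 0.17, Synpo2, an actin-binding protein, at -1.09 ± 0.27 and desmin, Des, at -1.09 ± 0.32. Synpo2 was higher in flat than in round (1.35 ± 0.27), lost without the litter block (adjusted p = 0.101). With the muscle score as a covariate Synpo2 turned to -0.48 and 0.32 and Des to 0.77, and Actg2 was no longer called, at -1.44 (adjusted p = 0.0619). Synpo2 in hypertrophic against flat lost its call without flat 1, flat 3, hypertrophic 1 or hypertrophic 3 (adjusted p 0.0643 to 0.157; 0.00222 to 0.698 over all alternatives), and Des without round 2, flat 1, flat 2, flat 3, hypertrophic 1 or hypertrophic 3 (adjusted p 0.0623 to 0.266; 0.00435 to 0.266 over all alternatives); without hypertrophic 1 Des was at -0.56.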

How the data were processed

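The authors deposited 1 table of MAS5 signal intensities for 45101 probe sets on 9 arrays, made with Affymetrix Expression Console and MAS5 per the submitters' processing notes; their versions are not given in the sources used here. The intensities had been scaled before being deposited: trimmed by 2% at both ends, the means of the 9 arrays are equal. Apart from 64 controls, 34945 probe sets carried 1 gene symbol, 932 several and 9160 none; 34741 were matched by gene identifier, which gave 18193 genes. Signals became log2(signal + 26), 26 being the 20th percentile of all values, and genes with a mean above 7.21 were tested. limma 3.58.1 (R 4.3.3) fitted layer and litter with a mean-variance trend (residual df 4, prior df 8.15), and p was adjusted by Benjamini-Hochberg over 11313 genes per contrast; every adjusted p in the text is from limma. The script was tested on simulated data.

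Litter was a block because the labels draw each sample from 1 of 3 litters and number the replicates. Deviations from layer means correlated at 0.167 to 0.517 in the 9 same-number pairs and at -0.434 to 0.0815 in the 18 different-number pairs. Deviations within a layer cancel, so these ranges are not independent and do not establish that a number marks 1 litter. Members and lists were chosen with earlier results of these data known. All members are described: in full where a called difference was at least 1, otherwise by differences or ranges. Non-members named are the 3 called genes of a list with the largest difference in each contrast. Alternatives were other pseudocounts, filters, scalings, probe set rules and variance models, no block, a muscle covariate and arrays left out. Fits of every probe set on its own were added after seeing the data.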

Additional observations from a re-analysis of the deposited data

How the results depend on the processing

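Leaving out 1 array at a time gave 2 to 4 members higher and 5 to 12 lower in flat against round, 8 to 18 and 4 to 5 in hypertrophic against flat, 6 to 12 and 5 to 9 in hypertrophic against round, and 21 to 27 in the F test. Members placed highest in round numbered 2 to 5, in flat 2 to 4 and in hypertrophic 3 to 8; those placed lowest in flat numbered 0 to 6 (0 without flat 1) and in hypertrophic 1 to 3. Without the replicate block the fit had 1 higher and 6 lower in flat against round, 8 higher in hypertrophic against flat and 4 higher in hypertrophic against round, with 1 highest and 2 lowest in flat and 3 highest in hypertrophic; of the 52 calls, 24 were lost. The muscle covariate lost 31 of the 52 calls and kept 2, 3 and 16 in the 3 contrasts. With calls made only under it included, there were 0 higher and 2 lower, 2 and 2, and 13 and 6. Its placements were 0 highest and 0 lowest in flat, 2 highest and 1 lowest in hypertrophic and 2 highest in round. The stricter filter, which tests fewer genes, left 3 lower in hypertrophic against flat and 1 lowest in hypertrophic; the mean of probe sets gave 1 higher in flat against round and 1 highest in flat; without round 1 and flat 3 together, 5 were highest in round. Reversed signs were Angpt2 in hypertrophic against round (-0.20) and Podxl in flat against round (0.23) with the mean of probe sets, and, with the muscle covariate, Gimap6 (-0.23), Des (0.77) and Synpo2 (0.32) in hypertrophic against flat and Synpo2 in flat against round (-0.48). The cause was not tested. No scaling alternative reversed a sign. With 3 litters and residual df 4, small differences cannot be resolved, and the difference of a dim gene such as Myh11 depends on the pseudocount (-1.44 in hypertrophic against flat with 104 added).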

Other observations

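Genes that hold vessels back were read from a list of 15, 13 of them tested. In flat against round 1 was higher and 4 lower, and in hypertrophic against flat 1 higher and 3 lower. In hypertrophic against round 2 were higher and 5 lower (adjusted p under 0.05 by limma). The medians were -0.08, -0.14 and -0.41 in that order. As higher and lower shares the counts were 7.69% and 30.8%, 7.69% and 23.1%, and 15.4% and 38.5%. Of all tested genes the shares were 8.39% and 8.64%, 6.12% and 5.22%, and 12.4% and 12.7%. Cnmd, chondromodulin, the vessel inhibitor of avascular cartilage, was lower in hypertrophic than in flat, at -1.07 ± 0.24 (adjusted p = 0.0129), a call lost without flat 2 or hypertrophic 2 (adjusted p 0.0521 to 0.0934; 0.00128 to 0.0934 over all alternatives); without flat 2 it was at -0.68. Its relative Tnmd, tenomodulin, a tendon gene, was lower too, at -1.59 ± 0.19 against flat and -2.28 ± 0.19 against round. Sema3e, a semaphorin that repels endothelial cells, was lower in flat than in round (-2.62 ± 0.25) and in hypertrophic than in round (-3.35 ± 0.25). Adamts1, a protease that binds VEGF, was lower in flat than in round (-0.92 ± 0.16). Higher were Timp1, a protease inhibitor (1.36 ± 0.17 against flat and 1.502 ± 0.17 against round), and Serpinf1, the anti-angiogenic factor PEDF (0.83 ± 0.15 in flat against round). Without the litter block the calls of Adamts1 and Serpinf1 (adjusted p = 0.186 and 0.0542) and of Cnmd were lost. The Cnmd call was also lost without the mean-variance trend. With the muscle score as a covariate the Cnmd call and 4 others were lost: Adamts1 at -0.20 (adjusted p = 0.816), Serpinf1 at 0.74 (adjusted p = 0.306) and Sema3e at -2.58 (adjusted p = 0.0583) in flat against round, and Tnmd at -1.32 (adjusted p = 0.107) in hypertrophic against flat.

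Of 9 oxygen-sensing genes, all tested, 1 was lower in flat than in round, 1 higher in hypertrophic than in flat and 2 lower in hypertrophic than in round. These are 11.1%, 11.1% and 22.2%, against 8.64%, 6.12% and 12.7% of all tested genes. Hif1a, the hypoxia factor that activates Vegfa, was lower in flat and in hypertrophic than in round, at -0.74 ± 0.11 (adjusted p = 0.000541) and -0.65 ± 0.11 (adjusted p = 0.00088). With the mean of its probe sets both calls were lost (-0.13 and -0.40), and with the muscle score as a covariate the first was lost, at -0.85 (adjusted p = 0.0923). Epas1, HIF-2 alpha, known from hypertrophic cartilage and endothelium, was higher in hypertrophic than in flat by 0.43 ± 0.12 (adjusted p = 0.0453), lost without round 2, flat 1, flat 2, flat 3, hypertrophic 1, hypertrophic 2 or hypertrophic 3 (adjusted p 0.0683 to 0.207; 0.0142 to 0.842 over all alternatives). Hif3a, a relative that can oppose the others, was lower in hypertrophic than in round, at -0.46 ± 0.14 (adjusted p = 0.0287), lost without round 2, round 3, hypertrophic 1, hypertrophic 2 or hypertrophic 3 (adjusted p 0.0566 to 0.182; 0.00765 to 0.977 over all alternatives).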
